A study of Oryctolagus cuniculus with 20 samples.

Results

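Rabbit jaw-joint cartilage sampled 8 weeks after the joint was deranged was compared with cartilage sampled 1 week after. The comparison rests on 8 of the 20 arrays of the study, 4 for each time, chosen by the week in their titles. Each array measured total RNA from the condylar cartilage of the temporomandibular joint (TMJ), the cartilage on the head of the lower jaw. Per the labels, all rabbits were male and 6 month old, the left joint of each operated rabbit was subjected to internal derangement (ID), and 16 operated rabbits were divided at random over 1, 2, 4 and 8 weeks. A further 4 rabbits had no treatment. Both groups compared here were operated, and the labels name no sham operation and do not say whether the age is that at surgery or at sampling. The labels describe separate rabbits and number the replicates, so each array was taken as 1 animal. All 8 arrays were scanned on the same day, but the 4 arrays of each time lay on a slide of their own, so time and slide cannot be told apart.

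Condylar cartilage is a growth cartilage under a fibrous surface. Its chondrocytes pass from a proliferating, matrix-making state, marked by SOX9, type II collagen and aggrecan, into a hypertrophic state marked by type X collagen and Indian hedgehog, after which the matrix is mineralised and replaced by bone. Derangement, in which the disc no longer sits between condyle and skull, changes the load on this tissue and is known for cartilage loss and remodelling.

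The arrays carried 43603 probes. A probe was kept when it was well above background, by the scanner's own flag, on 3 or more of the 4 arrays of either group, which left 26293 probes and 745 named genes. Only 7.45% of all probes could be given a gene name. Levels are log2 intensities in which each array's 75th percentile is 0, and a difference is the 8-week mean minus the 1-week mean. In the linear model (limma) over all 20 arrays, 4 probes passed an adjusted p of 0.05, or 0.0152% of those tested: 3 rose (0.0114%) and 1 fell (0.0038%). None of the 745 named genes passed, the percentage called being 0, while 143 of them (19.2%) lay at an unadjusted p under 0.05, as did 3932 of the probes (15%). By direction at that p, 7.03% of the kept probes were higher at 8 weeks and 7.92% lower, beside 9.13% and 10.1% of the named genes. The fit to the 8 arrays alone called 0 probes, with 2861 probes and 110 named genes at an unadjusted p under 0.05. The lowest adjusted p of any named gene there was 0.132. Each SE, interval and p below is from the 20-array fit unless another fit is named. Its spread per probe is shared by all 5 groups, including those not compared here. The median half-width of the 95% interval of a difference in that fit was 0.41, which is 1.33-fold, and a missing call does not show equal levels.

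One array stood apart. Replicate 4 of the 1-week group had the lowest 75th percentile of the 8 arrays, 174 intensity units where the others ran from 243 to 496, and 49.1% of its probes were well above background where the others had 57.3% to 66.4%. Its correlation with the other 7 arrays was 0.923 to 0.948. The median SD of a kept probe was 0.32 in the 1-week group and 0.20 in the 8-week group. Without this array 72 probes (0.274%) were called, 61 higher and 11 lower at 8 weeks, along with 3 named genes (0.403%). With array weights, which gave it a weight of 0.148, 445 probes (1.69%), 207 higher and 238 lower, and 22 named genes (2.95%) were called. This array is called the dim array. Values without it are given for each gene whose difference is printed below and had an unadjusted p under 0.05. They are also given for the list medians that it moved by more than 1.5 times. Of the 143 named genes at an unadjusted p under 0.05, 119 had a smaller difference without it, 78 stayed under 0.05 and 0 changed sign.

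The 4 probes past the test are shown by the first 30 of their 60 bases, since for 3 of them the sequence is the only identity the files give. All letters are in lower case because no stretch is singled out, and the sequences are those of the array design, 5′ to 3′, with no genome position used here.
A_04_P024034: ggatatcacaggagaagatggcctctcgga
A_04_P101302: agataacagtggacacatccaatgaacacg
T-cell receptor beta-chain V9 probe: attgagaaaacagaagtgatcaatgagcga
A_04_P068306: gccttatttacagaatggtaaaaccaagga

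The probe A_04_P024034, described in the files only as a transcript from rabbit trigeminal nerve, had levels of -4.90, -4.44, -4.58 and -4.90 at 1 week and -2.41, -1.50, -2.16 and -2.72 at 8 weeks. Every 8-week array lay above every 1-week array. It rose by 2.51 ± 0.32 (SE, n = 4 and 4), with an adjusted p of 0.0106. It was well above background on 1 array at 1 week and on all 4 at 8 weeks, so its 1-week level is close to background and the fold is uncertain. The means were -4.82 in untreated cartilage, -5.80 at 2 weeks and -4.47 at 4 weeks. No array of those groups had it well above background.

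A_04_P101302, a predicted transcript without a gene name, read -4.53, -4.17, -4.38 and -4.98 at 1 week against -2.502, -2.90, -2.71 and -3.27 at 8 weeks. Its groups did not overlap. The rise was 1.67 ± 0.23 (SE), with an adjusted p of 0.0175. It was well above background on 2 of the 4 arrays at 1 week and on all 4 at 8 weeks, so the 1-week mean of -4.51 is close to background and the fold is uncertain. The means were -3.10 in untreated cartilage, -3.01 at 2 weeks and -3.29 at 4 weeks.

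The third probe that rose is described as a T-cell receptor beta-chain V9 transcript, a variable segment of the antigen receptor of T cells. It was well above background on all 8 arrays, and was singled out by its values. Its levels were -2.22, -1.82, -2.08 and -2.51 at 1 week and -0.97, -1.02, -1.06 and -0.78 at 8 weeks, with no overlap. This is a rise of 1.20 ± 0.19 (SE), or 2.30-fold, with an adjusted p of 0.0361. The means of the other groups were -2.21 in untreated, -1.47 at 2 weeks and -1.16 at 4 weeks. Of 11 T and NK cell genes named on the array 4 were kept, and none of those passed the test: the differences of IFNG, CD8A, CD5 and CTLA4 were -0.43, -0.30, -0.34 and 0.27.

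A_04_P068306 was the probe that fell, from -3.98, -3.46, -2.22 and -4.93 to -6.41, -6.33, -5.90 and -6.49. Only 1-week arrays, 3 of the 4, showed it well above background, and its 8-week level is therefore a bound. By that bound its mean was at least 1.50-fold lower at 8 weeks. The adjusted p of 0.0213 belongs to the measured difference of -2.63, between means of -3.65 and -6.28. No untreated, 2-week or 4-week array had it well above background either.

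**Figure D1:**
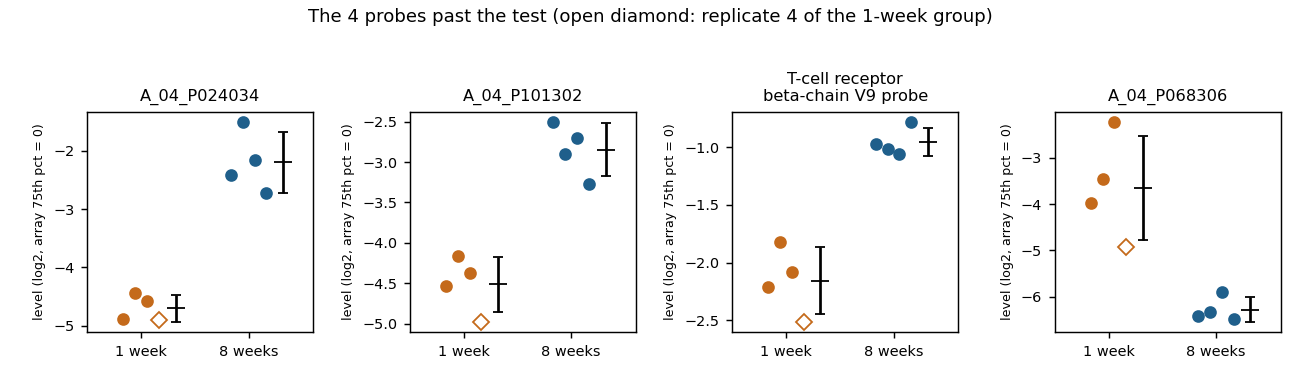
Levels of the 4 probes past the test on each array (y axis, log2 with the array's 75th percentile at 0; each panel has its own scale) at 1 week (orange) and 8 weeks (blue). Bars are mean and SD of 4 arrays and the open diamond is replicate 4 of the 1-week group. In each panel the 4 arrays of one time lie apart from the 4 of the other.

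All 4 probes stayed called without replicate 4 of the 1-week group, at adjusted p of 0.00594 (A_04_P024034), 0.0105 (A_04_P101302), 0.0222 (the V9 probe) and 0.000577 (A_04_P068306). In the fit to the 8 arrays alone the same 4 had adjusted p of 0.132, 0.175, 0.175 and 0.320, and so lost their calls. None was called after normexp background correction, at adjusted p of 0.801 to 0.993, where A_04_P101302 differed by 0.29 and A_04_P024034 by 0.66. With levels raised to the lowest signal above background on each array the V9 probe (A_04_P014182) stayed called (adjusted p = 0.0429) and the other 3 did not: A_04_P024034 differed by 1.77 (adjusted p = 0.0668), A_04_P101302 by 0.99 (0.164) and A_04_P068306 by -1.13 (0.102). Leaving out replicate 2 or replicate 3 of the 8-week group left 0 probes called, replicate 1 left 1 and replicate 4 left 2. Leaving out replicates 1, 2 and 3 of the 1-week group in turn gave 12, 9 and 33.

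Genes of the hyaline matrix had lower values at 8 weeks. The list holds 21 genes, of which 4 are named on the array and all 4 were kept. Each had a difference below 0, their median was -1.48 where the median over all kept probes was 0.00, and none passed the test, at adjusted p of 0.157 to 0.227. All 4 lay at an unadjusted p under 0.05, and in all 4 the groups overlapped. The nerve and Schwann cell list also had lower values, in all 3 of its measured genes, with a median difference of -1.69 (-1.15 without the dim array) and 0 called. Its S100B, a calcium-binding protein that chondrocytes make too, differed by -1.69 ± 0.53 (SE; adjusted p = 0.172; -1.15 without that array), NEFM, a neurofilament, by -1.92 ± 1.00 (SE) and TH by -0.44 ± 0.27 (SE). The log2 summed level of the 3 ran from 0.96 to 3.11 at 1 week and from -0.72 to 0.69 at 8 weeks. The 4 measured epithelial genes had lower values as well, from -0.65 (CASP14) to -0.18 (UPK3A), with a median of -0.47 (-0.24 without the dim array) and 0 called. The part of these cell types in the cartilage differences was not tested. COL2A1, ACAN and CNMD, which define the labelled tissue, were well above background on all 8 arrays.

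COL2A1, the fibrillar collagen of hyaline cartilage, had levels of 9.04, 10.02, 9.75 and 11.43 at 1 week and 9.01, 7.19, 8.24 and 9.74 at 8 weeks. The highest value was on the dim array, and the 8-week replicates 2 and 3 were lowest. The difference was -1.52 ± 0.53 (SE; 95% interval -2.64 to -0.39), or 2.86-fold lower, with an adjusted p of 0.211. Its 8 probes all had the same sign, from -1.95 to -1.30. Without the dim array it was -1.06 with an adjusted p of 0.382.

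CNMD encodes chondromodulin, a cartilage glycoprotein that keeps vessels out of the tissue. It read 2.86, 3.59, 4.63 and 6.69 at 1 week and 2.20, 0.31, 1.50 and 3.57 at 8 weeks. The difference was -2.55 ± 0.83 (SE; adjusted p = 0.181), and -1.80 without the dim array, which again held the highest value.

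For SOX9, the transcription factor that sets the chondrocyte program, the 1-week levels were -3.68, -2.88, -3.18 and -1.57 and the 8-week levels -3.45, -4.88, -4.72 and -4.04. It was well above background on all 4 arrays at 1 week and on 2 at 8 weeks. SOX9 thus met the background filter in a single group, so its lower level is close to background and the fold is uncertain. Across the alternative settings its difference ran from -1.73 to -0.69. The difference of -1.45 ± 0.44 (SE; adjusted p = 0.157) was -1.03 without the dim array. ACAN, the core protein of the large cartilage proteoglycan, differed by -1.04 ± 0.38 (SE; adjusted p = 0.227), and by -0.59 without that array, a change in size of more than 1.5 times.

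PAPSS2 and MGP were named after their values were seen, so their direction says nothing of other matrix genes outside the lists. PAPSS2, which makes the sulfate donor used for proteoglycans, differed by -1.31 ± 0.41 (SE; adjusted p = 0.171) over 5 probes of one sign, and by -0.89 without the dim array. MGP, matrix Gla protein, an inhibitor of calcification, differed by -1.10 ± 0.38 (SE; adjusted p = 0.210) over 9 probes of one sign, and by -0.82 without that array. Neither passed the test.

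Markers of the hypertrophic zone showed the same order of values. Of 17 genes on that list 8 were measured; 6 had lower and 2 higher values at 8 weeks, the median difference was -0.47, and 0 passed the test, while 3 had an unadjusted p under 0.05. COL10A1, the collagen made by hypertrophic chondrocytes, had levels of 6.75, 8.44, 7.23 and 9.85 at 1 week and 6.53, 3.45, 3.89 and 7.66 at 8 weeks. Replicates 2 and 3 of the 8-week group were far below the other arrays, and the groups overlapped. The difference was -2.68 ± 0.87 (SE; adjusted p = 0.180), and its 6 probes ran from -2.73 to -2.39. Without the dim array, which held the highest value, it was -2.09 (adjusted p = 0.321).

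IHH, the hedgehog signal sent by prehypertrophic cells, read -0.97, -0.07, -0.58 and 1.89 at 1 week and -1.60, -1.71, -2.32 and -0.99 at 8 weeks. Its groups did not overlap, as was so for 11% of the named genes (4.7% with 8 weeks above, 6.31% with 8 weeks below) and for 8.15% of all kept probes (3.16% above, 4.99% below). The difference was -1.73 ± 0.54 (SE; adjusted p = 0.171), and -1.12 without the dim array, which held the highest value. ENPP1, which makes the mineralisation inhibitor pyrophosphate, differed by -1.02 ± 0.34 (SE; adjusted p = 0.182), and by -0.75 without it. The remaining members had smaller values: PTH1R -0.71 (-0.16 without the dim array), SPP1 -0.22, RUNX2 -0.13, VDR 0.26 and PTHLH 0.35. Without the dim array the list median was -0.22, so more than 1.5 times nearer to 0.

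**Figure D2:**
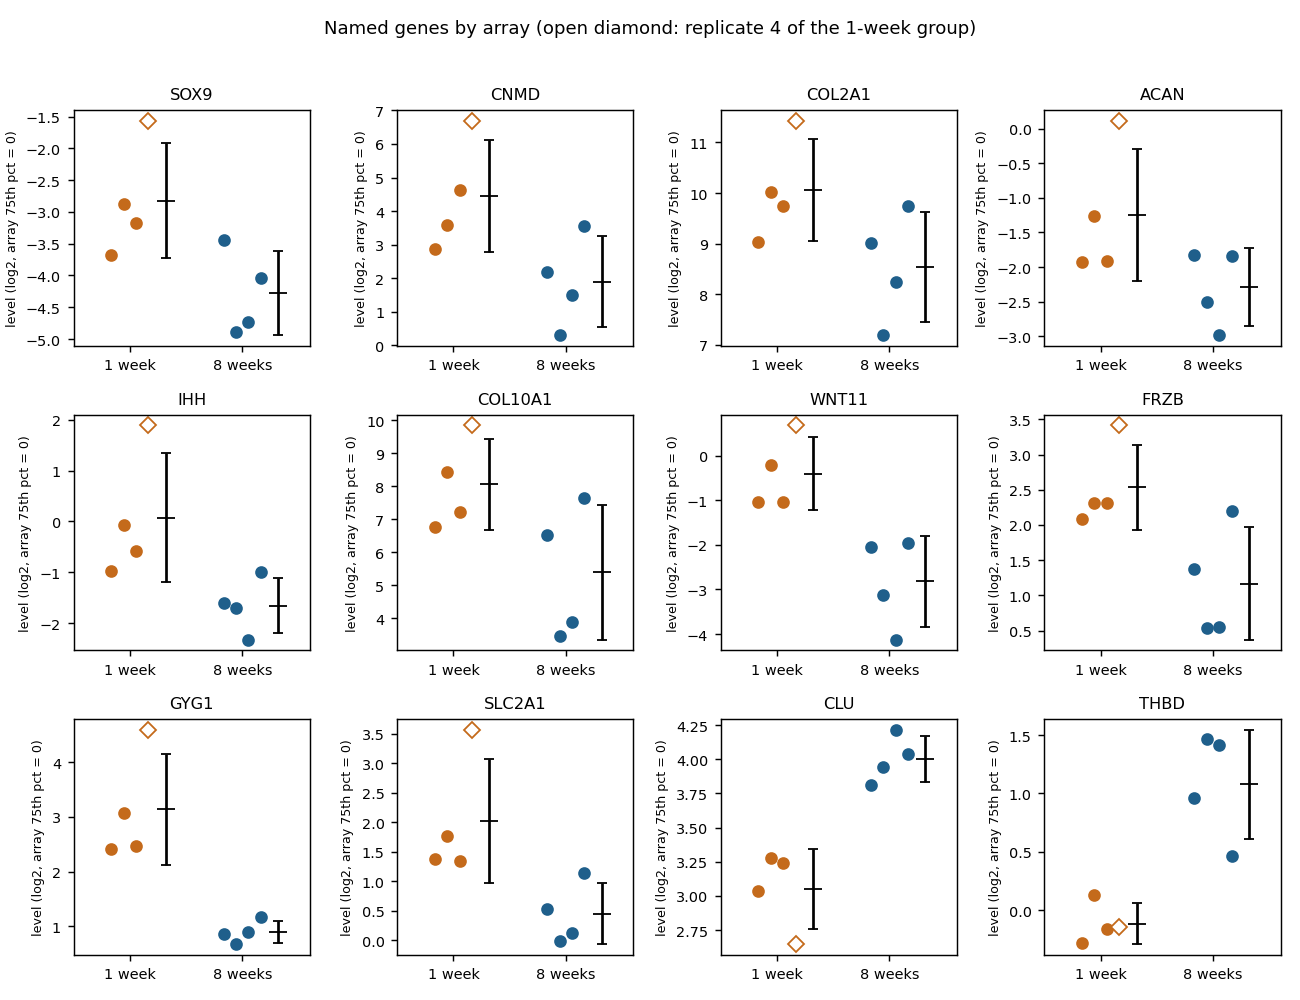
Levels of 12 named genes on each array (y axis, log2 with the array's 75th percentile at 0; each panel has its own scale) at 1 week (orange) and 8 weeks (blue), with mean and SD of 4 arrays; the open diamond is replicate 4 of the 1-week group. That array is the highest of the 8 in the first 10 panels and the lowest for CLU, and none of the 12 genes passed the test.

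In the WNT and hedgehog list 9 of 10 named genes were measured and 0 passed; 7 had lower values at 8 weeks, the median difference being -0.61. WNT11, a secreted WNT ligand of the type that acts without beta-catenin in many tissues, had levels of -1.04, -0.22, -1.04 and 0.68 at 1 week and -2.05, -3.12, -4.12 and -1.96 at 8 weeks, with no overlap. The difference was -2.41 ± 0.48 (SE; 95% interval -3.43 to -1.39; adjusted p = 0.0758), and -2.05 without the dim array (adjusted p = 0.0909). FRZB, a secreted WNT antagonist found in articular cartilage, differed by -1.36 ± 0.38 (SE; adjusted p = 0.141), and by -1.07 without it. The antagonist DKK1 had a difference of -0.61 ± 0.33 (SE; adjusted p = 0.395). CTNNB1 and LEF1, through which the canonical signal runs, had differences of -0.05 and -0.09.

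Of the TGF-beta, BMP and IGF list 9 genes were measured and 0 passed, with a median difference of 0.05 (0.11 without the dim array). TGFB1 and TGFB2, ligands of the same receptors, differed in opposite senses. TGFB1 had a difference of 0.49 ± 0.20 (SE; adjusted p = 0.260), which was 0.19 without the dim array. TGFB2 had one of -0.67 ± 0.26 (SE; adjusted p = 0.241), which was -0.68 without it. CCN2, the matricellular growth factor of hypertrophic cartilage, differed by -1.07 ± 0.43 (SE; adjusted p = 0.257), and by -0.73 without the dim array. HBEGF, a ligand of the EGF receptor, differed by 1.81 ± 0.57 (SE; adjusted p = 0.171) with groups that did not overlap, and by 1.56 without the dim array. HBEGF met the background filter in a single group, so its lower level is close to background and the fold is uncertain. Across the alternative settings its difference ran from 0.49 to 2.22.

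Cartilage lives with little oxygen and draws its energy from glucose. Of the hypoxia and glycolysis list 9 of 11 named genes were measured and 0 passed the test, with a median difference of -0.30 (-0.17 without the dim array); 4 had an unadjusted p under 0.05, all lower at 8 weeks. SLC2A1, the glucose transporter GLUT1, had levels of 1.38, 1.77, 1.34 and 3.56 at 1 week and 0.54, -0.01, 0.13 and 1.14 at 8 weeks. No 8-week array reached a 1-week array. The difference was -1.56 ± 0.43 (SE; adjusted p = 0.136), with 5 probes from -1.56 to -1.53, and it was -1.05 without the dim array. LDHA, which turns pyruvate to lactate, differed by -1.02 ± 0.34 (SE; adjusted p = 0.187), and by -0.88 without that array. GAPDH and GPI, enzymes of glycolysis, had differences of -0.51 and -0.48 (-0.38 and -0.32 without it), and HIF1A, the hypoxia factor, one of 0.19.

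GYG1 encodes glycogenin, the primer of glycogen chains, and was singled out because its p was among the lowest of the named genes. It read 2.41, 3.08, 2.47 and 4.59 at 1 week and 0.86, 0.68, 0.89 and 1.17 at 8 weeks. The 8-week arrays lay close together and below every 1-week array. The difference was -2.24 ± 0.41 (SE), or 4.72-fold lower, with an adjusted p of 0.0690, and without the dim array it was -1.76 and called (adjusted p = 0.0354).

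ATP1B2, the beta-2 subunit of the sodium pump, was the other gene of that kind. No 1-week array had it well above background and all 4 at 8 weeks did, with levels of -5.31, -4.65, -5.59 and -4.82 against -3.30, -3.21, -3.23 and -2.92. By the bound its mean was at least 1.80-fold higher at 8 weeks. The adjusted p of the measured difference was 0.0690, and 0.0330 without the dim array. KCNQ1, a potassium channel, was called only in that setting among those run, at 0.73 (adjusted p = 0.0387), where the fit with all arrays gave 0.42 (adjusted p = 0.389). JPH1, a junctophilin that ties the plasma membrane to calcium stores, differed by -2.20 ± 0.48 (SE; adjusted p = 0.0795), and by -1.72 without it.

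The synovial lining list has 2 measured genes, with opposite signs and a median of -0.25 (-0.04 without the dim array). CLU, the secreted chaperone clusterin, had levels of 3.03, 3.28, 3.24 and 2.65 at 1 week and 3.81, 3.95, 4.22 and 4.04 at 8 weeks, with no overlap. The difference was 0.95 ± 0.19 (SE; 95% interval 0.55 to 1.35; adjusted p = 0.0758), and 0.82 without the dim array. HAS2, which makes hyaluronan, read -2.78, -1.89, -2.58 and -0.17 and then -3.07, -3.42, -3.68 and -3.11, also without overlap. Its difference of -1.46 ± 0.43 (SE; adjusted p = 0.150) was -0.90 without the dim array.

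Matrix proteases and their inhibitors gave 23 measured genes of 25 named on the array, with 0 called, a median difference of 0.29, 17 higher and 6 lower. An unadjusted p under 0.05 was reached by 6, all higher at 8 weeks, but the list median was 0.01 without the dim array. PLAT, tissue plasminogen activator, read -2.93, -2.91, -2.70 and -4.58 at 1 week and -2.07, -1.89, -1.85 and -2.21 at 8 weeks; the difference was 1.27 ± 0.42 (SE; adjusted p = 0.181), and 0.84 without the dim array. Its groups did not overlap, and the dim array held the lowest value.

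The lysosomal proteases CTSD and CTSK differed by 0.59 ± 0.18 and 0.80 ± 0.32 (SE), with adjusted p of 0.168 and 0.248. Without the dim array they were 0.42 and 0.39. CTSK is a collagen-degrading protease of osteoclasts, and of the 5 measured genes on the osteoclast list 0 passed, with a median difference of 0.15 (0.24 without the dim array). Of the others, ITGB3, an integrin subunit, had a difference of 0.67 (0.33 without the dim array), ACP5 0.15, MMP9 0.00, and CALCR, the calcitonin receptor, -1.19 ± 1.04 (SE). MMP13, the main collagenase for type II collagen, read 7.15, 7.32, 7.34 and 5.92 at 1 week and 7.68, 7.27, 7.61 and 7.73 at 8 weeks. Its difference of 0.64 ± 0.26 (SE; adjusted p = 0.263) was 0.31 without the dim array, which held the lowest value. MMP3, stromelysin, had a difference of -0.21 ± 0.26 (SE; 95% interval -0.75 to 0.34).

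Among endothelial genes 7 of 10 named were measured, 6 with higher values at 8 weeks, a median difference of 0.40 (0.22 without the dim array), and 0 called. ACE, angiotensin-converting enzyme, read -3.41, -0.67, -4.44 and -4.83 at 1 week and 0.00, 0.79, 0.94 and -1.19 at 8 weeks; replicate 2 of the 1-week group lay among the 8-week arrays. The difference was 3.47 ± 0.87 (SE; adjusted p = 0.112), and 2.98 without the dim array. THBD, thrombomodulin, read -0.28, 0.13, -0.16 and -0.14 and then 0.96, 1.46, 1.42 and 0.46, with no overlap, a difference of 1.19 ± 0.45 (SE; adjusted p = 0.234) that was 1.18 without the dim array. VCAM1, an adhesion molecule, had a difference of 1.38 ± 0.75 (SE; 0.55 without the dim array) and NOS3, the endothelial nitric oxide synthase, one of 0.40 ± 0.21 (SE; 0.21 without it). KDR, a VEGF receptor, had a difference of 0.16 and SELE one of -0.30. The mean level of the 7 genes ran from -2.498 to -1.05 over the 1-week arrays and from -1.16 to -0.66 over the 8-week arrays. In whole tissue, a smaller share of a cell type and less RNA per cell cannot be told apart, and this holds for each gene above.

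Inflammatory genes gave no shared direction: of 15 measured cytokines and receptors 8 had higher and 7 lower values, 0 passed, and the median difference was 0.01 (-0.07 without the dim array). IL1B read -2.73, -3.25, -3.03 and -2.09 at 1 week and -4.18, -1.95, -2.09 and -2.86 at 8 weeks. The 8-week arrays spanned the 1-week arrays on both sides. The difference was 0.01 ± 0.67 (SE; 95% interval -1.40 to 1.41), so a change of more than 2-fold in either direction lies inside the interval. TNF had an interval of -0.70 to 0.46 and PTGS2, the inducible prostaglandin synthase, one of -1.02 to 0.51. IL18 had a difference of 0.69 ± 0.24 (SE; adjusted p = 0.204) with no overlap, and 0.57 without the dim array. IL6 was on the array but was not kept, and COL1A1 and VEGFA were not named on it.

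Of the neutrophil list 4 genes were measured, 3 higher and 1 lower at 8 weeks, with a median difference of 0.75 and 0 called. CXCR2, a chemokine receptor, had a difference of -0.41 ± 0.19 (SE; -0.23 without the dim array) and S100A9 one of 0.12 ± 0.33 (SE). The other 2 were spread widely within the 8-week group. CAMP, an antimicrobial peptide of neutrophil granules, read -5.20, 3.37, 2.88 and -1.34 at 8 weeks and -1.06, -3.63, -1.40 and -1.62 at 1 week. S100A8, a calgranulin, read -3.01, 4.49, 3.82 and 0.12 at 8 weeks. In both genes 8-week replicates 2 and 3 were highest, the same arrays that were lowest for COL2A1 and COL10A1. The difference of S100A8 was 1.38 ± 1.63 (SE; adjusted p = 0.724). Of the 6 macrophage genes 3 were higher and 3 lower, with a median difference of 0.00 (-0.18 without the dim array).

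Skeletal muscle genes, which mark tissue next to the condyle, were lower in value at 8 weeks in 10 of 11 measured genes, of 21 named on the array. The median difference was -0.65 and 0 passed. Of the 11 genes, 7 to 9 were well above background on each 8-week array and 7 to 11 on each 1-week array. A gene was kept on either group, so the count of lower genes takes in some close to background at 8 weeks. MYL1, a fast myosin light chain, read 0.25, -0.46, -1.97 and -1.92 at 1 week and -4.67, -3.49, -5.21 and -3.92 at 8 weeks, with no overlap. Its difference was -3.30 ± 1.21 (SE; adjusted p = 0.226), and -3.59 without the dim array. MYL1 met the background filter in a single group, so its lower level is close to background and the fold is uncertain. Across the alternative settings its difference ran from -3.61 to -1.73. MYH1, a fast myosin heavy chain, was well above background on 3 arrays at 1 week and 0 at 8 weeks. By the bound its mean was at least 2.64-fold lower at 8 weeks on these arrays. The measured difference was -1.65 ± 1.16 (SE, adjusted p = 0.524), so a fall beyond these arrays was not established. The log2 summed level of the 11 genes ran from 1.37 to 2.27 at 1 week and from 0.86 to 1.14 at 8 weeks. Their mean level ran from -2.39 to -1.70 at 1 week and from -3.18 to -2.93 at 8 weeks, with no overlap. In untreated cartilage the summed level ran from 2.37 to 9.02 and the mean level from -1.60 to 3.80. The SEs of the muscle genes take in the spread of those untreated arrays, which are not compared here. How far that spread changed the SEs was not tested. The fit to the 1-week and 8-week arrays alone called 0 probes. The part of muscle in the differences above was not tested.

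Fibrous matrix genes were near 0: of 11 measured, 5 were higher and 6 lower, 0 passed, the median difference was -0.02 (-0.06 without the dim array), and 0 had an unadjusted p under 0.05. COL3A1, the collagen of loose fibrous tissue, had a difference of -0.32 ± 0.17 (SE), and DCN, the small proteoglycan decorin, one of 0.70 ± 0.43 (SE) that was 0.16 without the dim array. Erythroid genes were near 0 as well, with HBA at 0.34 and HBB2 at -0.06.

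Among lipid genes 15 of 17 named were measured and 0 passed, with a median difference of -0.24 (-0.03 without the dim array). APOA1, the main protein of HDL, read -5.28, -2.46, -3.33 and -0.44 at 1 week and -6.15, -6.12, -6.21 and -6.24 at 8 weeks, where no array had it well above background. By the bound its mean was at least 2.55-fold lower at 8 weeks. The dim array held the highest level, and the measured difference was -3.30 with it (adjusted p = 0.0763) and -2.49 without. In the solute carrier family 31 of 55 named genes were measured, 12 higher and 19 lower with 0 called. SLC4A2, an anion exchanger, read -1.24, -1.30, -1.03 and -1.49 at 1 week and -0.73, -0.77, -0.51 and -0.48 at 8 weeks, a difference of 0.64 ± 0.13 (SE; adjusted p = 0.0758) that was 0.57 without the dim array.

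**Figure D3:**
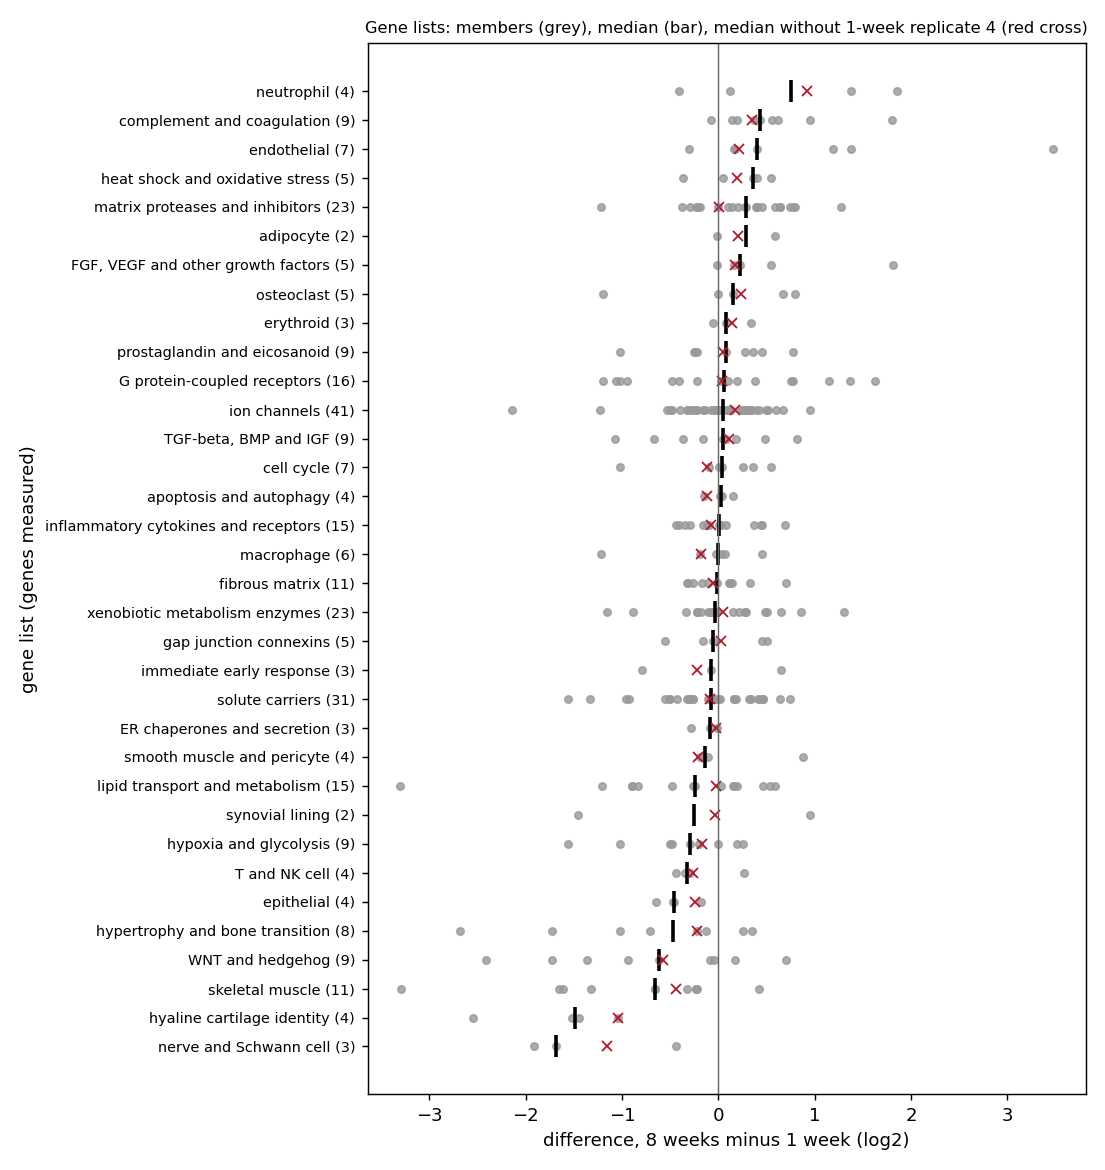
Difference between 8 weeks and 1 week (x axis, log2) of each measured member (grey) of the lists with 2 or more measured genes (y axis, number measured in brackets). Black bars are list medians and red crosses are the medians without replicate 4 of the 1-week group. The hyaline cartilage median is -1.48 with all arrays and -1.05 without that one, and no member of any list passed the test.

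The 8-week means of COL2A1, CNMD and COL10A1 lay close to those of untreated cartilage. COL2A1 had group means of 8.90 ± 0.54 in untreated, 10.06 ± 1.00 at 1 week, 8.40 at 2 weeks, 9.75 at 4 weeks and 8.54 ± 1.09 at 8 weeks (SD, n = 4). CNMD ran 2.14, 4.44, 1.79, 4.53 and 1.90 in the same order, and COL10A1 5.80, 8.06, 5.72, 7.59 and 5.38. For WNT11 the order gave -2.59, -0.40, -2.27, -1.85 and -2.81, and for GYG1 1.01, 3.14, 0.98, 2.11 and 0.90. In these 5 genes the untreated, 2-week and 8-week means were lower than the 1-week and 4-week means. CLU differed in that its 8-week mean of 4.00 was the highest of the 5 groups, above the 3.63 of untreated cartilage. The untreated and 2-week arrays were scanned on another day than the 1-week, 4-week and 8-week arrays, so these means are given as a description.

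**Figure D4:**
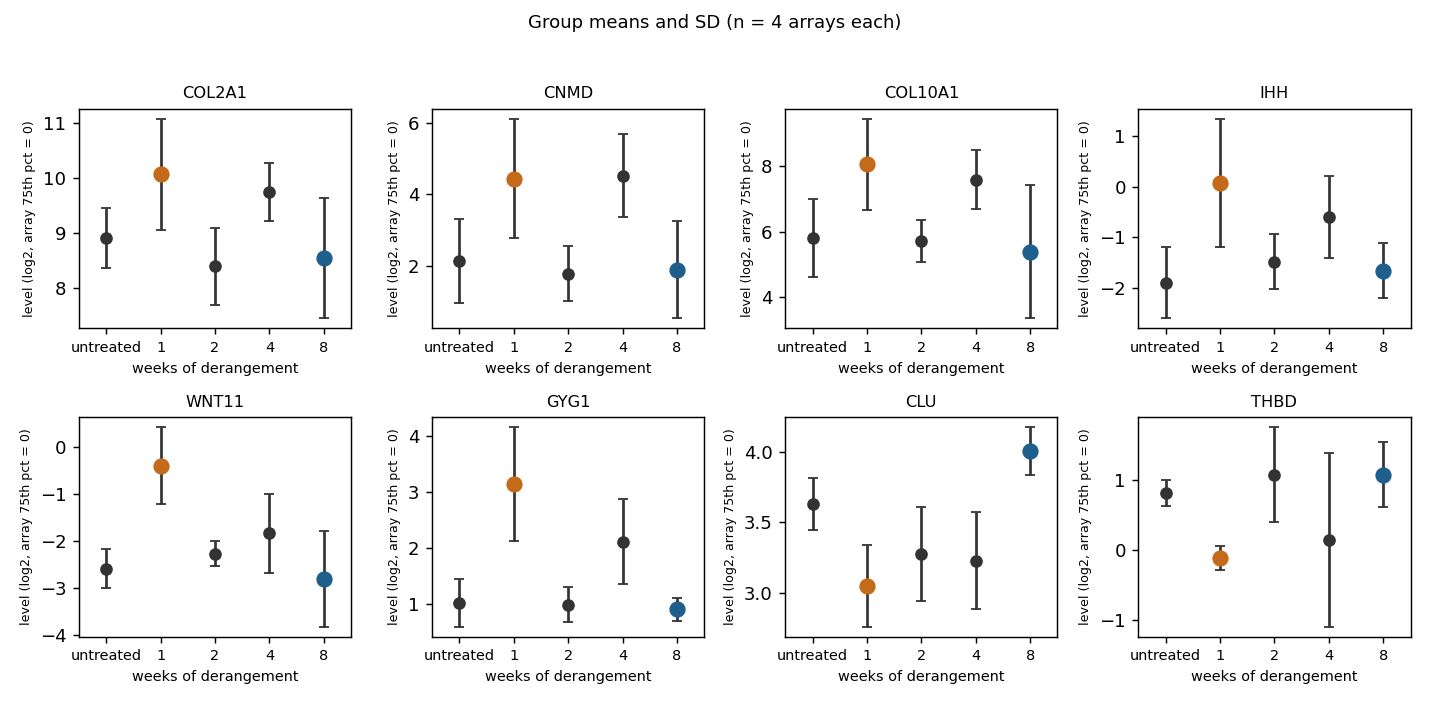
Mean level and SD (n = 4 arrays) of 8 named genes (y axis, log2 with the array's 75th percentile at 0; each panel has its own scale) in untreated cartilage and after 1, 2, 4 and 8 weeks of derangement (x axis, in order but not to scale). The 1-week (orange) and 8-week (blue) means are those compared; for COL2A1 they are 10.06 and 8.54, beside 8.90 in untreated cartilage.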

How the data were processed

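Cy3-labelled RNA was hybridised to Agilent one-colour arrays, 1 sample each. The deposited values are background-subtracted spot intensity in linear units, made with Agilent Feature Extraction 10.7.1.1, per the file headers and the submitters' processing notes. Control spots and outlier-flagged spots were left out, spots of a probe averaged, and log2 values shifted so that each array's 75th percentile was 0. Kept probes were well above background on 3 or more of 4 arrays of either group. limma 3.58.1 (R 4.3.3) fitted 5 group means over all 20 arrays, and two-sided p-values were adjusted over all kept probes by Benjamini-Hochberg at 0.05. A gene is its brightest kept probe. Where a probe was above background on no array of a group, a fold is a bound from the lowest signal above background. Such a bound is a ratio of group means without sampling error, and the p given with it is that of the measured difference. Intervals are unadjusted. The authors' value table, also intensity and in linear units, served as an alternative, though its intensities are nearly the same as those used here.

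Genes were named from accessions, gene IDs and descriptions through RefSeq names; 40354 of 43603 probes stayed unnamed. The rule for named genes was up to 4 members per list with the lowest p and a panel of 12 genes; not every gene it gives is described, and other members (such as SELE, MMP9, CTNNB1 and LEF1) were added after their values were seen. Members and lists were chosen with earlier results of these data known. The script was tested on simulated data. Precision is limited by 4 arrays per group. Coordinates were not used here.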

Additional observations from a re-analysis of the deposited data

Results flagged for a closer look

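In groups of 4 arrays, a value was picked out when its gap to the nearest other array, over the range of the group, passed Dixon's 95% critical value. Chance picks out about 1 in 20 groups. Of 282 groups of values 20 were picked out, 13 in the 1-week group and 7 in the 8-week group, and all 13 of the former were on replicate 4, the dim array. On that array the level lay below the other 1-week arrays for CD86 (-4.79), VCAM1 (-4.94), PPARG (-4.18), PLAT (-4.58), TGFB1 (-0.53), GPX1 (5.04), PTGER4 (-0.99), PTGS1 (-0.43), PROS1 (-0.11), FMO1 (-0.87) and MMP13 (5.92). It lay above them for PTGER3 (-1.27) and GJA10 (-2.10).

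In the 8-week group, replicate 4 lay above the others for CALD1 (5.52) and below them for LEP (-2.498), CCNE1 (-4.43) and MMP3 (-1.0005). Replicate 2 lay below the others for HSP90B1 (5.47) and above them for GPX1 (5.99). Replicate 1 lay above them for APOC4 (-1.84).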

How the results depend on the processing

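The count of 4 called probes depended on the setting. It was 10 with median centring, 47 with quantile normalization, 0 with normexp background (1212 probes at an unadjusted p under 0.05), 38 with no filter and 0 with the filter in both groups (3564 at that p). It was 0 in the fit to 8 arrays, 1 over the 12 arrays of 1, 4 and 8 weeks, 1 with one variance weight per group, 2 with trend and robust, and 445 with array weights. Leaving out 1 array in turn gave 0 to 72 probes, 0 to 3 named genes and 0 to 1 lists with a called member. A fit to 7 arrays, chosen after seeing the data and without replicate 4 of the 1-week group, called 0 probes, with 3721 at an unadjusted p under 0.05. The cause was not tested, except that smaller fits have fewer degrees of freedom. Quantile normalization called 4 named genes (ATP1B2, CLU, GYG1 and WNT11), in 2 lists, no filter 1 (ATP1B2) and array weights 22, in 8 lists; 15 of the 22 are named here, ANXA11, CACNB3, KCNA2 and MYOC among them. The filter in any group and the mean of a gene's probes each called the same 4 probes. The authors' value table did too, but it holds nearly the same intensities, with 8-week columns in another order. Its result could therefore hardly differ and is no separate check. The floor called 3, of which 1, the V9 probe, is among the 4. Of 3224 values of 135 named genes, 78 in 26 genes differed in sign with no call on either side; no called value changed sign.

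With the replicate block 7 probes were called. Deviations of same-numbered arrays correlated at -0.16, -0.06, 0.09 and 0.07, so the numbers were not taken to pair rabbits. The 8-week columns of the authors' table equal other arrays of that group, so replicate numbers there are uncertain.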
